A study of Caenorhabditis elegans with 12 samples.

Results

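The mir-64 family of Caenorhabditis elegans was followed through adult ageing, in worms with and without the microRNA gene mir-71. All rows of the deposited table named miR-63, miR-64, miR-65, miR-66 or miR-229 were taken, in whichever arm was measured. These were 9 of the 213 mature microRNAs, from 5 genes: both arms of mir-63, mir-65, mir-66 and mir-229, and the 5p arm of mir-64. In the table they are cel-miR-63-5p, cel-miR-63-3p, cel-miR-64-5p, cel-miR-65-5p, cel-miR-65-3p, cel-miR-66-5p, cel-miR-66-3p, cel-miR-229-5p and cel-miR-229-3p. All 9 passed the filter on low values, a mean of 5 over the 12 libraries, which removed 0 microRNAs.

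Small RNA was sequenced from whole animals in 4 groups of 3 libraries each, described by the submitters as biological replicates. The groups were mir-71(n4115) mutants of the strain MT12993 at day 5 and at day 0 of adulthood, and wild-type N2 at day 5 and at day 0. The mutants carry a deletion allele of mir-71 in every cell, and a single mutant strain was used. Worms of every group were grown at 20 °C and were moved, shortly after the last moult, to plates with 0.1 mg/mL 5-fluorodeoxyuridine, which blocks DNA synthesis and so stops the growth of progeny. The study asked how microRNAs change as adults age and what the loss of mir-71, which promotes long life, does to them.

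A microRNA is cut from a hairpin precursor, either arm of which (5p or 3p) can leave a stable product. The arm that is loaded into an Argonaute protein, the guide strand, represses messenger RNAs that pair with its seed, the bases near its 5′ end, and the other arm, the passenger strand, is mostly degraded. miR-64-5p, miR-65-5p, miR-66-5p, miR-229-5p and miR-63-3p share a seed and can therefore repress overlapping targets, which makes them a family. The cluster of mir-229, mir-64, mir-65 and mir-66 is among the microRNA loci whose loss has been studied in the survival of heat by the worm.

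In the Ensembl annotation of WBcel235, mir-229, mir-64, mir-65 and mir-66 follow one another in this order on the plus strand of chromosome III. The cluster runs from 2172452 to 2173206, a stretch of 755 bases. mir-229 is 281 bases from mir-64, mir-64 is 44 bases from mir-65, and mir-65 is 6 bases from mir-66. The cluster overlaps 0 exons of gcn-1, the gene of a translation regulator on the same strand that spans it (2151945 to 2197908), so it is intronic. mir-63 stands alone on the minus strand of chromosome X at 17598765 to 17598868, outside protein-coding genes and 1618 bases from lec-9, which encodes a galectin. The annotated mature arms of the 5 genes are 21 to 26 bases long, so levels of different arms can be set side by side without a correction for length, although capture and ligation differ between microRNAs.

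Levels are normalised read counts, the reads of a microRNA divided by a size factor of its library, as the authors deposited them. The libraries held 917170 to 4070663 reads of the 213 microRNAs, where 1 read was taken as the smallest common step of a library's values. The library medians still differed after this scaling. They were 108 to 290 in mutants at day 5 and 118 to 212 in mutants at day 0, against 77.1 to 115 in N2 at day 5 and 118 to 191 in N2 at day 0. miR-71-5p had 104 to 189 normalised counts in mutants at day 5 and 52.5 to 139 in mutants at day 0, against 90221 to 142695 in N2 at day 5 and 123352 to 173431 in N2 at day 0, so its level fitted the label of every library. In whole worms, fewer cells of a type and less RNA per cell cannot be told apart.

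The family was carried by 3 clustered guide strands. miR-64-5p had 73492, 62876 and 49929 normalised counts in mutants at day 5 and 68706, 45671 and 43236 in mutants at day 0. In N2 it had 42805, 28542 and 28741 at day 5 and 47979, 41618 and 45139 at day 0. miR-65-5p had 70420, 56157 and 55882 in mutants at day 5, 58936, 41247 and 47804 in mutants at day 0, 29719, 25749 and 29770 in N2 at day 5, and 44878, 45353 and 49889 in N2 at day 0. For both of these microRNAs the 3 libraries of N2 at day 5 included the lowest values of the study, and for miR-65-5p they lay below the other 9. The mature sequences of miR-64-5p and miR-65-5p are nearly identical, and how the authors counted reads that match both is not given in the sources used here, so the division of reads between them is uncertain.

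miR-66-5p varied most among these 3. It had 122505, 49911 and 66785 normalised counts in mutants at day 5, 71909, 11964 and 39404 in mutants at day 0, 11385, 19555 and 32863 in N2 at day 5, and 30632, 18938 and 17709 in N2 at day 0. Replicate 2 of the mutants at day 0 and replicate 1 of N2 at day 5 were the lowest libraries, and replicate 1 was the highest in both mutant groups.

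The other guide strands were scarcer, by about an order of magnitude at day 0 and by less for miR-63-3p at day 5. miR-229-5p, from the first hairpin of the cluster, had 10702, 5293 and 7215 normalised counts in mutants at day 5, 5730, 2307 and 3905 in mutants at day 0, 1797, 2005 and 4361 in N2 at day 5, and 2917, 1887 and 2354 in N2 at day 0. miR-63-3p, the guide from chromosome X, had 15119, 10130 and 12474 in mutants at day 5 and 4449, 1776 and 3743 in mutants at day 0. In N2 it had 3024, 4352 and 6418 at day 5 and 2711, 2405 and 2474 at day 0. Day 5 lay above day 0 in every library of its own strain for miR-63-3p, while the 2 days overlapped for miR-229-5p in both strains. Within same-numbered mutant libraries, miR-229-5p was higher at day 5 in all 3 pairs.

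Among the passenger strands, miR-63-5p had 2229, 486 and 1061 normalised counts in mutants at day 5, 419, 131 and 274 in mutants at day 0, 731, 303 and 712 in N2 at day 5, and 217, 139 and 140.4 in N2 at day 0. The groups of the 2 days did not overlap in either strain. miR-229-3p had 338, 249 and 216 in mutants at day 5, 407, 264 and 323 in mutants at day 0, 223, 167 and 205 in N2 at day 5, and 407, 441 and 260.1 in N2 at day 0, and it was the only arm of the 9 whose mean was lower at day 5 in both strains.

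miR-65-3p and miR-66-3p were near the limit of detection. miR-65-3p had 21 to 40 reads per library in mutants at day 5 and 10 to 20 in mutants at day 0, against 7 to 17 in N2 at day 5 and 3 to 8 in N2 at day 0. miR-66-3p had 16 to 30 reads in mutants at day 5 and 3 to 11 in mutants at day 0, against 2 to 8 in N2 at day 5 and 4 to 11 in N2 at day 0. With so few reads, counting error adds to the spread of these arms by an amount that was not estimated. Reads without molecular identifiers are also not independent molecules.

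**Figure D1:**
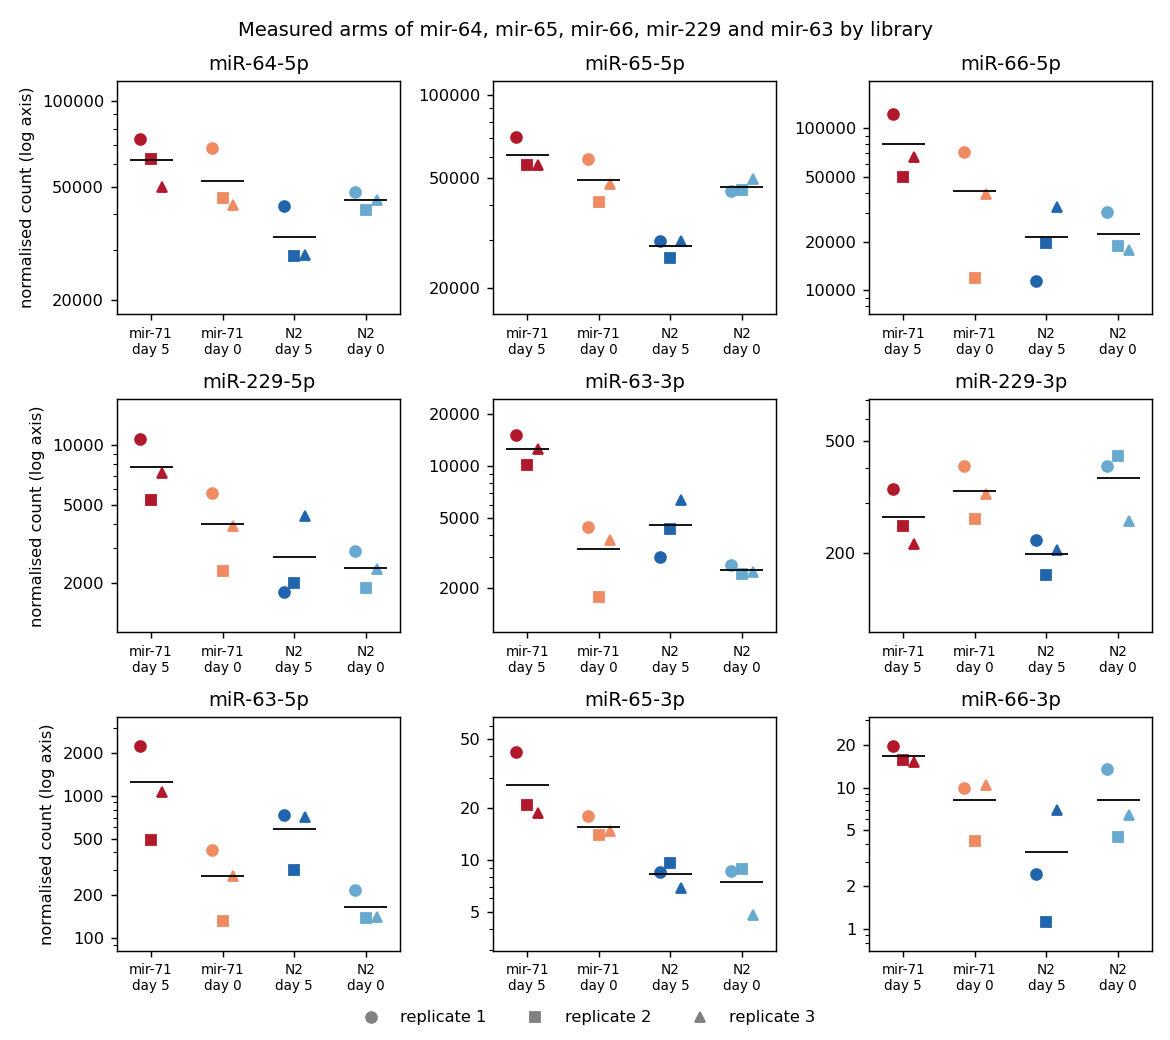
Normalised counts of the 9 measured arms in the 12 libraries (log axis, different range in each panel). Points are libraries, the shape gives the replicate number, and the line is the mean of 3 libraries. miR-63-3p and miR-63-5p lie higher at day 5 than at day 0 in each strain without overlap, and miR-65-5p is lowest in N2 at day 5.

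In every group the 3 abundant guides stood above the 2 scarce ones, and the order among the abundant guides differed between groups. In mutants at day 5, miR-66-5p averaged 79734 ± 37990, miR-64-5p 62099 ± 11801 and miR-65-5p 60820 ± 8316 (SD, n = 3), and these neighbours differed by less than their spread. In mutants at day 0 the means were 52538 ± 14055 for miR-64-5p, 49329 ± 8943 for miR-65-5p and 41093 ± 30008 for miR-66-5p, again within their spread. In N2, miR-66-5p had the lowest mean of the 3 at both days, at 21267 ± 10841 at day 5 and 22426 ± 7133 at day 0. miR-65-5p averaged 28412 ± 2307 in N2 at day 5 and 46707 ± 2766 in N2 at day 0, beside 33363 ± 8178 and 44912 ± 3187 for miR-64-5p. miR-63-3p ranked above miR-229-5p at day 5 in every library, whereas at day 0 miR-229-5p was the higher in all 3 mutant libraries and in 1 of the 3 N2 libraries. Their day 0 means, 3322 ± 1385 and 3981 ± 1713 in mutants and 2530 ± 161 and 2386 ± 516 in N2 for miR-63-3p and miR-229-5p, differed by less than their spread.

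As a share of the total signal of a library, which does not depend on the scaling, the 5 guide strands together made up 7.80% ± 2.02 in mutants at day 5 and 7.32% ± 0.647 in mutants at day 0. The corresponding mean shares of N2 were 5.07% ± 0.914 at day 5 and 6.64% ± 1.02 at day 0, with the SD over 3 libraries. The totals of N2 include miR-71-5p, at a mean of 114533 normalised counts at day 5 and 150855 at day 0, which the mutants nearly lack. Shares of mutants and of N2 are therefore not taken over the same set of microRNAs. For scale, the smallest total of an N2 library was 1.34e+06 normalised counts (day 5) and the largest 2.34e+06 (day 0). The part of miR-71-5p in the difference of shares between strains was not tested. Single shares ranged from 5.82% to 9.86% in mutants at day 5 and from 4.17% to 6.0% in N2 at day 5, so these groups overlapped. Within the guide sum, miR-66-5p supplied 34.6% ± 7.43 in mutants at day 5, 24.8% ± 11.8 in mutants at day 0, 23.1% ± 9.73 in N2 at day 5 and 18.7% ± 4.51 in N2 at day 0. miR-63-3p supplied 5.72% ± 0.685 and 2.19% ± 0.496 in mutants at day 5 and day 0, and 5.04% ± 1.48 and 2.13% ± 0.0465 in N2 at day 5 and day 0. Its share of the family signal was therefore above its day 0 range in all 6 libraries of day 5.

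Under the authors' scaling, the arms of mir-63 were the members called between day 5 and day 0, miR-63-5p in both strains and miR-63-3p in mutants, and both were higher at day 5. A change was called at a limma adjusted p under 0.05 over all 213 microRNAs, and log2 changes are of the normalised count plus 1, which understates changes of scarce arms. In mutants, 2 of the 9 arms were called, both higher, where 13.6% of all microRNAs were called and 9.86% were called higher. miR-63-3p averaged 12574 ± 2496 normalised counts in mutants at day 5 and 3322 ± 1385 in mutants at day 0 (SD, n = 3 each), which is 2.00 ± 0.42 higher on the log2 scale (SE, limma adjusted p = 0.0096). This call was kept whichever library was left out. Its passenger miR-63-5p averaged 1259 ± 888 at day 5 and 274 ± 144 at day 0 in mutants (2.08 ± 0.57, adjusted p = 0.0264), and lost its call without replicate 1 (1.54) or 3 of the mutants at day 5 or replicate 2 (1.63) or 3 of the mutants at day 0. With the 2 mutant groups fitted alone the adjusted p was 0.0774 for miR-63-3p and 0.139 for miR-63-5p. With the replicate number as a block, the calls over all microRNAs in mutants were 67 in place of 29, and both mir-63 arms were among them.

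In N2, 1 of the 9 arms was called, again higher, where 23.5% of all microRNAs were called and 7.51% were called higher. It was miR-63-5p, at 582 ± 242 normalised counts in N2 at day 5 and 166 ± 44.5 in N2 at day 0 (log2 change 1.73 ± 0.57, limma adjusted p = 0.04). The call was lost without replicates 1 or 3 of N2 at day 5, replicates 2 or 3 of N2 at day 0, or replicate 3 of the mutants at either day (adjusted p 0.0527 to 0.123). miR-63-3p averaged 4598 ± 1710 in N2 at day 5 and 2530 ± 161 in N2 at day 0, and its log2 change of 0.80 ± 0.42 was not past the threshold (adjusted p = 0.178). It was called at 1.34 when libraries were scaled by the trimmed mean of M-values (TMM) and at 1.33 when library medians were made equal.

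Averaged over both strains, the change with age was 1.40 ± 0.30 for miR-63-3p (limma adjusted p = 0.00198) and 1.91 ± 0.40 for miR-63-5p (adjusted p = 0.00191). Both were called under all 24 alternative settings tried. The setting without a filter repeats the main fit, as the filter removed 0 microRNAs. The log2 changes were 1.06 to 1.62 for miR-63-3p under 4 other scalings and 1.57 to 2.12 for miR-63-5p. With a library left out they were 1.20 to 1.53 and 1.63 to 2.18, and the lowest of all settings, 0.84 and 1.12, came from the authors' log2 table, whose transformation is not stated. These were the 2 called arms among the 9, where 33.8% of all microRNAs were called and 16.4% were called higher. Higher at day 5 than at day 0 as well was the summed level of 8 microRNAs of the mir-35 family, which mark germline and embryos. That sum ran from 108135 to 346010 in mutants at day 5 and from 14147 to 154730 in mutants at day 0, and from 143403 to 238057 in N2 at day 5 and from 23098 to 97947 in N2 at day 0. All 8 of those arms were called higher in the average over strains, and 1 of the 8, miR-41-3p, was at 0 in 3 libraries. Within strains, miR-38-3p and miR-42-3p were called higher in both, miR-35-3p and miR-39-3p in N2 alone, and the rest in neither. The markers of muscle (miR-1-3p), intestine (miR-60-3p) and glia (miR-228-5p) were not called with age. Averaged over strains they had −0.78, −0.48 and −0.02, and miR-1-3p was lower at day 5 in N2 without overlap (−1.21). The part of any of these markers in the mir-63 result was not tested.

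The clustered guide strands did not pass the test for age under the authors' scaling. In mutants, the log2 changes were 0.26 ± 0.38 for miR-64-5p, 0.31 ± 0.36 for miR-65-5p, 1.20 ± 0.60 for miR-66-5p and 0.99 ± 0.46 for miR-229-5p (limma adjusted p 0.685, 0.576, 0.184 and 0.155). With the replicate number as a block, miR-66-5p was called at the same value (adjusted p = 0.049). It was also called without replicate 1 of the mutants at day 0 (1.77, adjusted p = 0.0401), whereas leaving out replicate 2 of that group gave 0.48 (adjusted p = 0.587). The change of miR-229-5p was 0.65 when the same replicate 2 was left out, and it missed the threshold with the replicate block (adjusted p = 0.0573). In N2 the changes were −0.45 ± 0.38 for miR-64-5p, −0.72 ± 0.36 for miR-65-5p, −0.16 ± 0.60 for miR-66-5p and 0.09 ± 0.46 for miR-229-5p (adjusted p 0.41, 0.14, 0.88 and 0.903). For miR-65-5p the 3 N2 values of day 5 lay below the 3 of day 0, but its adjusted p missed the threshold.

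Of the scarcer passengers of the cluster, miR-229-3p had −0.31 ± 0.38 in mutants and −0.87 ± 0.38 in N2 (limma adjusted p 0.599 and 0.0981). miR-65-3p had 0.68 ± 0.49 and 0.18 ± 0.49, and miR-66-3p 1.03 ± 0.62 and −1.12 ± 0.62, in mutants and in N2 (adjusted p 0.329, 0.84, 0.259 and 0.197). The 3 values of day 5 and the 3 of day 0 did not overlap for 4 of the 9 arms in mutants, where this held for 26.8% of all microRNAs, and for 4 of the 9 in N2, where it held for 46.9%. In mutants the 4 were both arms of mir-63, miR-65-3p and miR-66-3p, all higher at day 5, and in N2 they were both arms of mir-63, higher, and miR-65-5p and miR-229-3p, lower.

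The median log2 change of the 9 arms was 0.99 in mutants, beside 0.28 over all microRNAs, and −0.16 in N2, beside −0.48 over all microRNAs. Both medians in mutants moved with single libraries. The median of the 9 arms was 0.73 and that of all microRNAs −0.13 when replicate 1 of day 5 was left out, 0.61 and 0.00 when it was replicate 2 of day 0, and 1.20 and 0.50 when it was replicate 1 of day 0. Set against the median of all microRNAs, miR-63-3p had 1.72 in mutants and 1.28 in N2, and miR-63-5p 1.80 and 2.21. miR-64-5p was close to that median in both strains, at −0.03 in mutants and 0.03 in N2. The median over all microRNAs in N2 was −0.48 with equal totals, −0.54 with equal totals of the less abundant ones, 0.03 with TMM and 0.05 with equal library medians. In mutants it was −0.24, −0.32, −0.03 and 0.18 under the same scalings. The sign of the age change depended on the scaling for miR-64-5p in both strains, for miR-65-5p in mutants and for miR-66-5p in N2. The split of all calls moved as well. In N2 it was 16 higher and 34 lower under the authors' scaling, and 39 and 33 with TMM and 42 and 34 with equal library medians. In mutants it was 21 higher and 8 lower under the authors' scaling, and 24 and 47, 22 and 50, 24 and 32, and 47 and 28 under the other 4 in the order given. It turned to 6 higher and 16 lower without mutant replicate 1 of day 5, and to 9 and 12 without mutant replicate 2 of day 0. In N2 it was 11 and 11 when replicate 2 of day 5 was left out and 20 and 21 when it was replicate 1 of day 0. Averaged over strains it was 35 higher and 37 lower, and 40 and 87 with equal totals and 36 and 90 with equal totals of the less abundant.

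**Figure D2:**
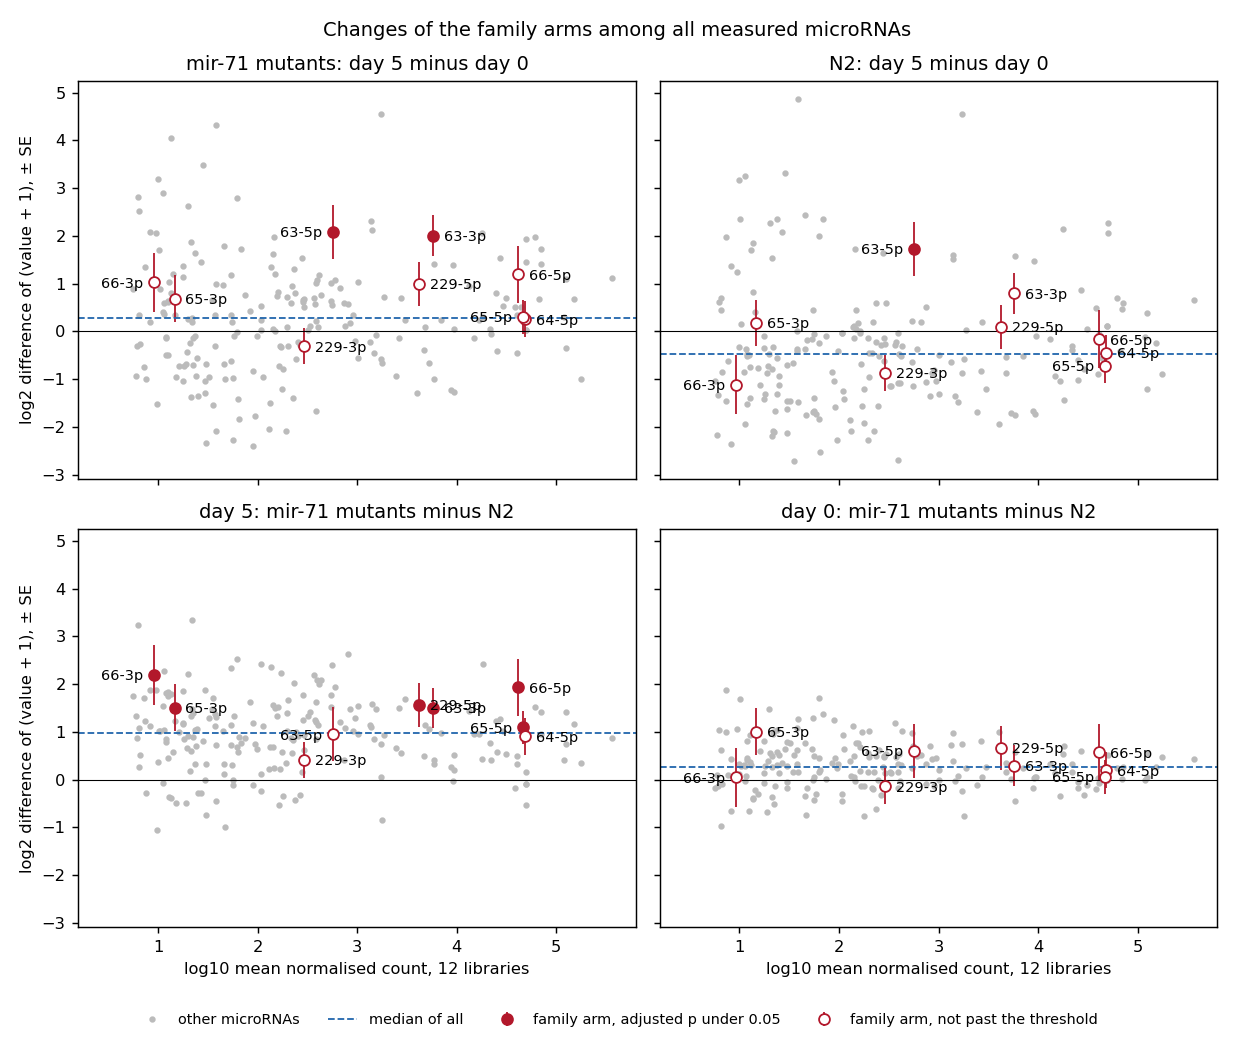
Log2 differences (with SE, limma) of the 9 arms against the log10 mean normalised count over 12 libraries, with other microRNAs in grey and the median of all as a dashed line. The mir-71 arms are left out of the lower panels. Both mir-63 arms stand above the median in the panels for age, and at day 5 the whole cloud of mutants minus N2 is shifted upward.

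At day 5 most family arms were higher in the mutants than in N2 under the authors' scaling, as were many other microRNAs. limma called 6 of the 9 arms higher and 0 lower, where 22.7% of 211 microRNAs were called, all of them higher. The log2 differences were 1.93 ± 0.60 for miR-66-5p (adjusted p = 0.0339), 1.57 ± 0.46 for miR-229-5p (adjusted p = 0.0258), 1.50 ± 0.42 for miR-63-3p (adjusted p = 0.022) and 1.09 ± 0.36 for miR-65-5p (adjusted p = 0.0391). The scarce passengers miR-66-3p (2.20 ± 0.62, adjusted p = 0.022) and miR-65-3p (1.51 ± 0.49, adjusted p = 0.0391) were called as well. miR-64-5p (0.91 ± 0.38, adjusted p = 0.0835), miR-63-5p (0.95 ± 0.57, adjusted p = 0.198) and miR-229-3p (0.42 ± 0.38, adjusted p = 0.392) were not. With the replicate number as a block, 8 of the 9 arms were called, miR-64-5p (adjusted p = 0.0194) and miR-63-5p (adjusted p = 0.0467) among them, and 96 of the 211 microRNAs in place of 48.

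The values of mutants and N2 at day 5 did not overlap for 7 of the 9 arms, where this held for 41.7% of the 211 microRNAs. The exceptions were miR-63-5p and miR-229-3p. The median difference over all microRNAs was 0.98, and against it miR-66-3p stood at 1.21, miR-66-5p at 0.95, miR-229-5p at 0.58, miR-65-3p at 0.53, miR-63-3p at 0.52, miR-65-5p at 0.11, miR-63-5p at −0.03, miR-64-5p at −0.08 and miR-229-3p at −0.57. That median was 0.32 with equal totals, 0.30 with equal totals of the less abundant ones, −0.07 with TMM and 0.15 with equal library medians, and the calls split into 23 higher and 5 lower, 18 and 5, 9 and 12, and 18 and 13, against 48 and 0 under the authors' scaling. Under these scalings miR-66-5p had 0.87 to 1.26 and miR-66-3p 1.35 to 1.64. Both were called with equal totals alone, where the totals include the miR-71-5p of N2. The other 7 arms were called under none of the 4 scalings. miR-64-5p and miR-63-5p changed sign under at least 1 of them, and miR-229-3p was negative under all 4 (−0.64 to −0.25). Each of the 6 calls was also lost without replicate 1 or 3 of the mutants at day 5 and without replicate 1 or 2 of N2 at day 5 (adjusted p 0.0534 to 0.157), and those of miR-65-5p and miR-65-3p without further libraries and with the compared groups alone. miR-63-5p was called without replicate 2 of the mutants at day 5 (1.51). The intestinal marker miR-60-3p was called higher in mutants at day 5 (1.50 ± 0.52, limma adjusted p = 0.0482). The muscle marker miR-1-3p (1.42 ± 0.65, adjusted p = 0.0998) and the glial marker miR-228-5p (1.13 ± 0.50, adjusted p = 0.0913) were not. Values of all 3 were higher in mutants without overlap, and against the median of 0.98 these markers stood at 0.52, 0.43 and 0.15. miR-60-3p ran from 2020 to 4945 in mutants at day 5 and from 620 to 1928 in N2 at day 5, and none of these 3 markers was at 0 in a library. The 8 germline and embryo markers of the mir-35 family were not called between strains at day 5, and the values of each overlapped. Their log2 differences ran from −0.52 for miR-35-3p to 1.02 for the very scarce miR-41-3p, the only arm of them above the median of 0.98. The part of any of these tissues in the result was not tested.

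**Figure D3:**
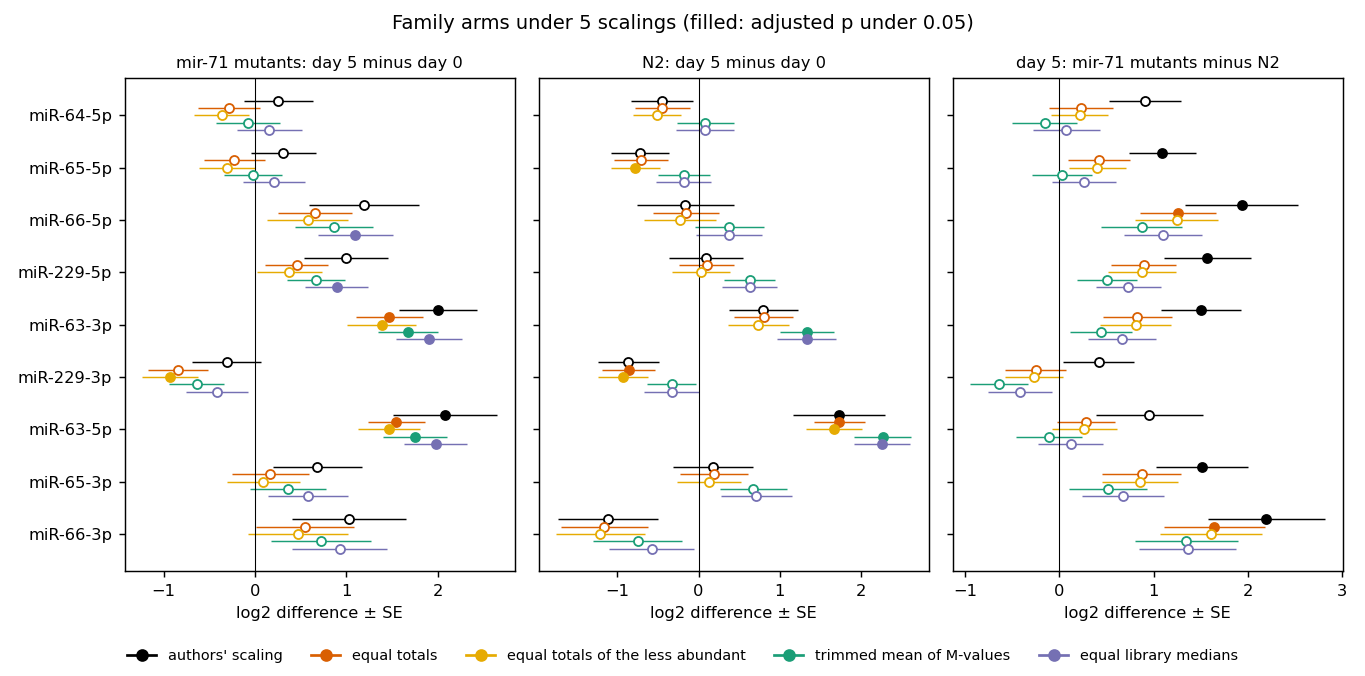
Log2 differences (points, with limma SE) of each arm under the authors' scaling and 4 others, for age in mutants, age in N2, and mutants minus N2 at day 5. Filled points have an adjusted p under 0.05. The mir-63 arms keep a positive change with age under all 5 scalings, while the strain differences at day 5 are lower under the other 4.

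At day 0 limma called 0 of the 9 arms and 0% of 211 microRNAs between mutants and N2, and 5 of the 211 had an unadjusted p under 0.05. The log2 differences of the 9 arms lay between −0.14 ± 0.38 for miR-229-3p and 1.00 ± 0.49 for miR-65-3p, whose 13.9 to 18.1 normalised counts in mutants did not overlap with the 4.79 to 8.92 in N2. Values without overlap were found for 4.74% of the 211 microRNAs. miR-229-5p had 0.66 ± 0.46, miR-66-5p 0.57 ± 0.60, miR-63-3p 0.29 ± 0.42, miR-64-5p 0.20 ± 0.38 and miR-65-5p 0.06 ± 0.36, and the sign of miR-64-5p, miR-65-5p and miR-66-3p depended on the scaling. Single libraries moved these values. When replicate 1 or replicate 2 of the mutants at day 0 was left out, miR-66-5p had −0.0017 and 1.29, and miR-63-3p had 0.03 and 0.69. With 1 library left out the sign also turned for miR-64-5p, miR-65-5p, miR-66-3p and miR-229-3p. The median SE over the 211 microRNAs was 0.53, and differences of this size were not detectable with 3 libraries per group.

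Whether the change with age differed between the strains was tested directly. limma called 0 of the 9 arms and 0% of 211 microRNAs, and 25 of the 211 had an unadjusted p under 0.05. The difference of the age changes, mutants minus N2, was 2.15 ± 0.88 for miR-66-3p, 1.36 ± 0.85 for miR-66-5p, 1.21 ± 0.60 for miR-63-3p and 1.03 ± 0.50 for miR-65-5p (limma adjusted p 0.398, 0.52, 0.398 and 0.398). All 9 differences were positive under the authors' scaling, beside a median of 0.70 over the 211. Those of miR-63-5p (−0.52 to −0.19) and miR-65-3p (−0.31 to −0.03) were negative under all 4 other scalings. The sign for miR-64-5p and miR-229-3p turned under at least 1 of these scalings. With 1 library left out, the difference of miR-63-5p also fell as low as −0.19. The rise of miR-63-3p was therefore called in mutants and not in N2 without being shown to differ between them.

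Ratios between arms within a library do not depend on how libraries are scaled. They were compared over libraries with two-sided exact permutation tests, with the days exchanged within each strain or the strains within each day (400 arrangements), and p-values were adjusted over 14 tests. miR-63-3p per miR-64-5p read was 0.206, 0.161 and 0.25 in mutants at day 5 and 0.0648, 0.0389 and 0.0866 in mutants at day 0. In N2 it was 0.0706, 0.152 and 0.223 at day 5 and 0.0565, 0.0578 and 0.0548 at day 0. Day 5 was higher without overlap in both strains, by 1.50 on the log2 scale, at an exact permutation p of 0.005, the smallest these 400 arrangements allow, and an adjusted p of 0.07. With 14 tests, a ratio that alone reaches this smallest p is adjusted to 0.07, so it could not pass the correction by itself however clear its separation. Leaving out replicate 1 of N2 at day 5 gave an adjusted p of 0.035, and leaving out replicate 3 of N2 at day 0 gave 0.0467. In both runs this ratio's own exact permutation p could be no lower than 0.005. Its adjusted p fell because more of the other ratios had a low p in these runs.

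The arms of mir-229 were compared in the same way. miR-229-5p per miR-229-3p read was 31.7, 21.2 and 33.5 in mutants at day 5, 14.1, 8.73 and 12.1 in mutants at day 0, 8.06, 12.0 and 21.3 in N2 at day 5, and 7.17, 4.28 and 9.05 in N2 at day 0. The guide's excess was higher at day 5 by 1.13 on the log2 scale (exact permutation p = 0.01, adjusted p = 0.07) and higher in mutants than in N2 by 0.98 (p = 0.02, adjusted p = 0.0933). The days did not overlap in mutants and overlapped in N2. For age, the adjusted p was 0.035 and 0.0467 without the same 2 libraries, and for strain leaving out the day 0 library gave 0.0467. These adjusted values also rest on the other ratios with a low p in the same runs. For mir-63, miR-63-3p per miR-63-5p read averaged 13.1 ± 7.14 in mutants at day 5, 12.6 ± 1.73 in mutants at day 0, 9.18 ± 5.13 in N2 at day 5 and 15.8 ± 2.86 in N2 at day 0 (SD, n = 3), and neither age (adjusted exact permutation p = 0.42) nor strain (adjusted p = 0.887) passed.

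Within the cluster, miR-64-5p per miR-65-5p read stayed between 0.893 and 1.44 in all 12 libraries, and miR-66-5p per miR-229-5p read between 5.19 and 12.5. By contrast, miR-64-5p per miR-66-5p read ran from 0.600 to 3.82. It averaged 0.869 ± 0.346 in mutants at day 5, 1.96 ± 1.61 in mutants at day 0, 2.03 ± 1.53 in N2 at day 5 and 2.10 ± 0.498 in N2 at day 0 (SD, n = 3), and neither age nor strain passed the exact permutation test (adjusted p 0.42 and 0.408). miR-64-5p per miR-229-5p read averaged 8.56 ± 2.88 in mutants at day 5, 14.3 ± 4.79 in mutants at day 0, 14.9 ± 8.63 in N2 at day 5 and 19.2 ± 2.80 in N2 at day 0. Of the 14 tests on ratios, 0 had an adjusted p under 0.05, and the limit given above for a single ratio applies to this count.

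**Figure D4:**
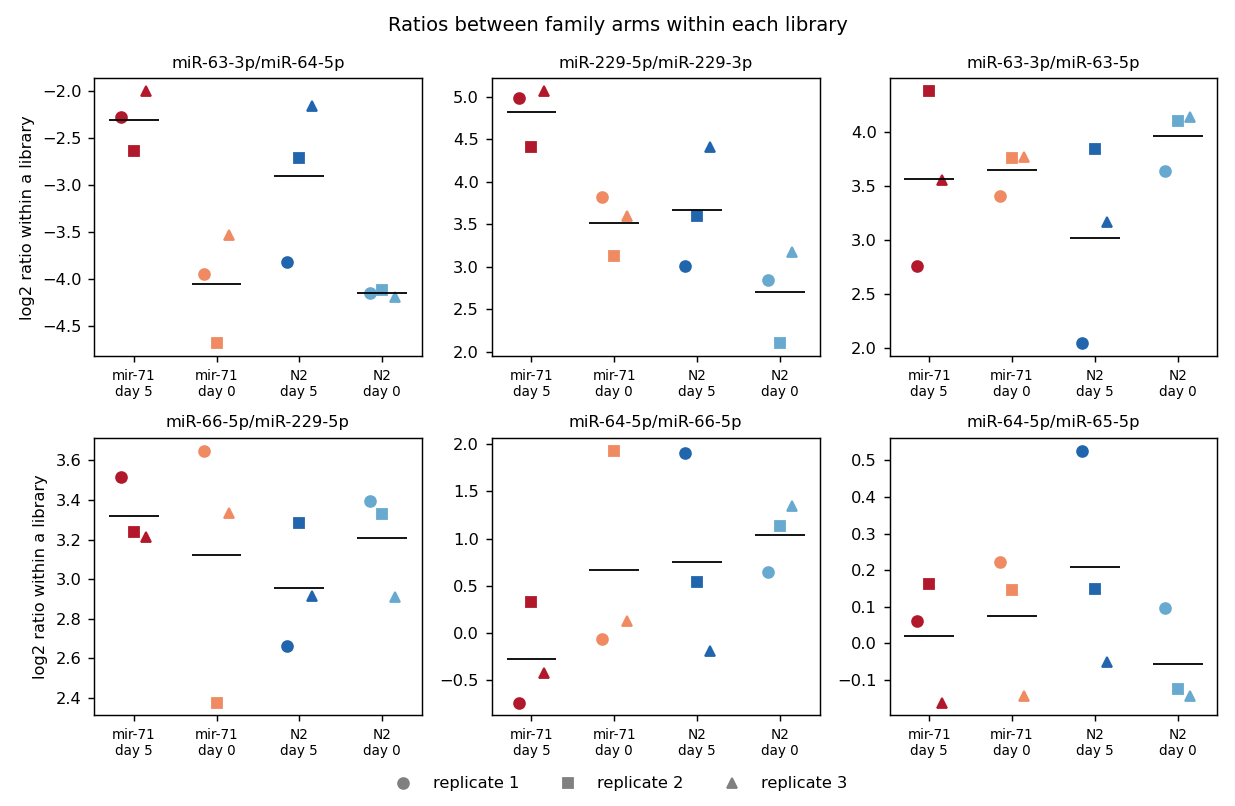
Log2 ratios of 6 pairs of arms within each library, by group. Points are libraries, the shape gives the replicate number, and the line is the mean of 3 log2 ratios. miR-63-3p over miR-64-5p is higher at day 5 than at day 0 without overlap in both strains, and miR-229-5p over miR-229-3p is highest in mutants at day 5.

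Likeness of profiles was measured as the root mean square difference of the log2 values over the 12 libraries, each profile centred on its own mean. Scaling of libraries cancels in this measure apart from the added 1. miR-64-5p and miR-65-5p differed by 0.194, and only miR-356b-3p (0.179) was closer to miR-64-5p. miR-66-5p and miR-229-5p differed by 0.352, whereas miR-64-5p and miR-66-5p differed by 0.842 and miR-64-5p and miR-229-5p by 0.637. Of the 4 guides of the cluster, miR-64-5p and miR-65-5p were thus closest to each other, as were miR-66-5p and miR-229-5p, which come from its opposite ends. All these profiles come from the same 12 libraries and share their depth. The division of reads between miR-64-5p and miR-65-5p is uncertain, as said above, and its part in their likeness was not tested. miR-63-3p was nearer to miR-229-5p (0.487) than to miR-64-5p (0.895).

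The other microRNAs closest to each guide were miR-356b-3p, miR-87-3p and miR-54-3p for miR-64-5p (0.179 to 0.310), and miR-252-5p, miR-356b-3p and miR-56-3p for miR-65-5p (0.220 to 0.248). Closest to miR-66-5p were miR-1829c, miR-259-5p and miR-233-3p (0.189 to 0.312), and closest to miR-229-5p were miR-1822-3p, miR-74-3p and miR-124-3p (0.204 to 0.283). miR-63-3p had more distant neighbours, miR-72-5p, miR-77-3p and miR-1829a-3p (0.374 to 0.413). Those of miR-63-5p were miR-246-3p, miR-34-5p and miR-2209a-3p (0.403 to 0.453). For comparison, the median difference over all microRNAs outside the family was 0.753 for miR-64-5p and 1.04 for miR-63-3p. Among the passengers, miR-229-3p was nearest to miR-47-3p (0.242), miR-65-3p to miR-76-3p (0.432) and miR-66-3p to miR-794-5p (0.424).

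Other microRNAs whose loss has been studied in heat stress were set beside the family, namely the arms of mir-71, mir-80, mir-239a and mir-239b, of which 7 of 8 were measured. With age, 2 of the 5 arms other than mir-71 were called in mutants, both higher, where 13.6% of all microRNAs were called and 9.86% were called higher. The mir-71 arms were set aside there, since the mutants carry a deletion of that gene. In N2, 0 of 7 were called, where 23.5% of all were. At day 5, 2 of the 5 other than mir-71 were called higher in mutants than in N2, where 22.7% of all were called. These 2 were in each case miR-239a-5p, with log2 changes of 2.80 ± 0.72 for age in mutants and 2.53 ± 0.72 between strains at day 5, and the very scarce miR-239b-5p (2.82 ± 0.81 and 3.24 ± 0.81), both chosen after their values were seen. In N2, miR-239a-5p had 1.99 ± 0.72 with age, higher without overlap (limma adjusted p = 0.0554), and miR-239b-5p had 0.61 ± 0.81 (adjusted p = 0.605). Neither age change was called as different between the strains (limma adjusted p 0.744 and 0.427). The most abundant of the list, miR-80-3p, had 0.68 ± 0.51 with age in mutants and −0.23 ± 0.51 in N2 (adjusted p 0.359 and 0.792). miR-80-5p had −0.56 ± 0.56 and −1.31 ± 0.56, and miR-71-5p had −0.41 ± 0.43 with age in N2, none past the threshold.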

How the data were processed

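The tables deposited by the authors hold 213 mature microRNAs in 12 libraries. The first is a signal, normalised counts made from reads and a size factor for each library, and the authors' other table gives log2 values by an unstated transformation. Per the submitters' processing notes, STAR 2.4.0h and DESeq2 were used with genome build WBcel235; the sources used here do not state trimming, counting rules or the features behind the size factors. All values of a library were whole multiples of 1 step within 0.001, a reading from the values alone. No count model was fitted. The 4 group means were fitted with limma 3.58.1 (R 4.3.3) on log2(value + 1) with an intensity trend, two-sided, with Benjamini-Hochberg adjustment over 213 microRNAs. The 2 mir-71 arms were left out of counts between strains, which cover 211. The fit and the permutation tests were tested on simulated data of independent normal values. These held no shift shared by the microRNAs of a library, so the fit was not tested against such shifts. Alternatives were 2 pseudocounts, 2 filters, 4 scalings, the log2 table, the limma prior, the compared groups alone, a replicate block and each library left out.

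Same-numbered libraries deviated alike from their group means between strains (correlations 0.247 to 0.56 at day 0 and 0.335 to 0.466 at day 5). They also did so between days in mutants (0.113 to 0.386), but not between days in N2 (−0.0195 to 0.128). This reading of pairs comes from the data, not from a label. The main limma fit and the main permutation tests did not use pairs, which entered only through the replicate block among the alternatives. No 2 libraries shared more than 5 values that were exactly equal as deposited, with no tolerance. Libraries of a group are not said to come from separate cultures beyond "biological", so p-values measure the spread between these libraries. The members, lists and tests were chosen with earlier results of these data known. Named microRNAs were all measured arms, the heat-stress list by counts with values for its 3 most abundant, and the 3 nearest profiles to each arm. A part of that rule that needs seed sequences was not used here.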

Additional observations from a re-analysis of the deposited data

How the results depend on the processing

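Precision was limited by 3 libraries per group and by the scaling, and for miR-65-3p and miR-66-3p by read number. The number of microRNAs called for age in N2, 50 here, was 94 with equal totals, 91 with equal totals of the less abundant, 76 with equal library medians, 79 with the compared groups alone, 86 with the replicate block, and 10 to 67 with a library left out (10, 26 and 22 when it was replicate 2 or 3 at day 0 or replicate 2 at day 5 of N2). In mutants, 29 became 71, 72 and 75 under those 3 scalings, 56 with the trimmed mean of M-values, 3 with the compared groups alone, 67 with the replicate block, and 6 to 44 with a library left out (44 and 14 when it was replicate 1 or 3 at day 0, 6 when it was replicate 3 at day 5, all of the mutants). For age over both strains, 72 became 127 and 126 with equal totals and equal totals of the less abundant. Between strains at day 5, 48 became 28, 23, 21 and 31 with equal totals, equal totals of the less abundant, the trimmed mean of M-values and equal library medians, 96 with the replicate block, and 1 to 75 with a library left out. The counts were 1 and 25 when it was replicate 1 or 3 of the mutants at day 5, 6 and 3 when it was replicate 1 or 2 of N2 at day 5, and 75 when it was replicate 2 of the mutants at day 0. The cause was not tested. The counts at day 0 and for the difference of the age changes stayed at 0 under each alternative. Of the tests on ratios, 0 to 3 passed with a library left out, the 3 without replicate 1 of N2 at day 5 or replicate 3 of N2 at day 0, and 0 with the replicate block. miR-229-3p was called lower at day 5 with equal totals in N2 (−0.86) and with equal totals of the less abundant in N2 (−0.93) and in mutants (−0.93), and miR-65-5p in N2 with equal totals of the less abundant (−0.78). miR-229-5p (0.89) and miR-66-5p (1.09) were called for age in mutants with equal library medians. The call of miR-63-5p in N2 was lost with the deposited log2 table and with no intensity trend. Averaged over strains, equal library medians gave calls for miR-229-5p (0.76) and miR-66-5p (0.73), TMM scaling gave one for miR-229-5p (0.65), equal totals of the less abundant gave one for miR-65-5p (−0.54), and miR-229-3p was called with both equal-total scalings (−0.85 and −0.93) and when mutant replicate 1 of day 5 was left out (−0.68). Over all alternatives, 0 called values changed sign, 71 calls of single arms or ratios were lost and 26 gained. The replicate block changed no other call of an arm than those given in the report.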
